A study of Mus musculus with 8 samples.

Results

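The genes described here are those of the enzymes that write, copy and remove DNA methylation, followed from embryonic stem cells (ESC) to mammary epithelial cells undergoing lactogenic differentiation. They were taken by symbol from the deposited expression table, which gave all 10 of 10 symbols among 24062 genes: Dnmt1, Dnmt3a, Dnmt3b, Dnmt3l, Uhrf1, Uhrf2, Tet1, Tet2, Tet3 and Tdg. RNA was sequenced from 8 libraries, with 2 for ESC and 2 for each HC11 state, named N (normal), P (primed) and PRL (prolactin). The ESC are the wild type R1 line, of strain 129*1 * 129S1 per the labels, grown with LIF, serum and 2i inhibitors on inactivated embryonic fibroblasts as feeders. Before harvest they were replated in medium with serum, which enriched them over the fibroblasts. No LIF or inhibitors are named for that step. HC11 is a mammary epithelial line, labelled wild type and derived from COMMA-1D Mouse (Balb/c), that makes milk proteins after lactogenic hormones. N cells grew to confluence with EGF and insulin, P cells were kept without EGF in hydrocortisone and insulin for 48 h, and PRL cells then received prolactin beside hydrocortisone and insulin for 72 h. N and ESC differ in line, strain and medium, P and N in EGF, serum, hydrocortisone and time, and PRL and P in prolactin and time, and these parts of each contrast cannot be told apart. Whether replicates came from separate cultures is not given in the sources used here, so p-values measure the spread between these libraries, which may be technical.

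In mammals, methyl groups are placed on cytosines of CpG pairs by the de novo enzymes DNMT3A and DNMT3B, whose inactive relative DNMT3L stimulates them in germ cells and early embryonic cells. When DNA is replicated, the new strand is unmethylated, and UHRF1 binds such hemimethylated CpG and brings in DNMT1, which copies the pattern. UHRF2 is the close relative of UHRF1. The TET enzymes oxidize the methyl group with iron and 2-oxoglutarate, and the glycosylase TDG excises the most oxidized forms so that base excision repair can restore an unmethylated cytosine. In mammary epithelium, DNA methylation is known to be lost at milk protein genes in lactation.

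Expression is given as FPKM, fragments counted per gene and scaled by gene length and library depth, which can be set side by side between genes of a library. The deposited values rest on 11938282 to 33916602 fragments per library, and 3 fragments in a transcript of 1 kb correspond to 0.0885 to 0.251 FPKM. All 9 pluripotency markers were called down from ESC to N, 8 of them having passed the filter through ESC alone, with Pou5f1 at 998 FPKM or more in both ESC libraries and at 0.0563 FPKM or less in the others, and Krt14 at 2058 and 2096 FPKM in N against at most 0.202 FPKM in ESC. The keratins Krt5, Krt8, Krt17 and Krt18 were called up in N as well, whereas Krt19 had 4.85 and 3.66 FPKM in ESC and at most 0.243 FPKM in HC11. Krt14, and Krt5 at 0 in both ESC libraries, passed the filter through HC11 alone. The basal marker Acta2 was lower in N, with 5.05 and 2.12 FPKM in ESC and 0.933 and 0.526 FPKM in N, and was not called. The milk gene Csn2 stood at 128 and 111 FPKM in the PRL libraries and at 0.320 FPKM or less in the other 6. Of the 5 milk genes listed, Wap had 9.51 and 8.39 FPKM in PRL, and 3 (Csn1s1, Csn3 and Lalba) were below 1 FPKM in all 8 libraries. Of other cell types, the summed macrophage markers had 17.3 to 20.4 FPKM in ESC and 3.83 to 6.61 FPKM in HC11, nearly all from Cd68, with Ptprc listed at 0 in all 8 libraries, and the summed endothelial markers had 31.5 to 33.6 FPKM in ESC and at most 1.37 FPKM in HC11, nearly all from Pecam1. Adipocyte markers summed to 0.149 FPKM or less. The ESC libraries stood apart from each other in fibroblast markers, of which 13 of 15 were higher in replicate 1, with a summed level of 811 FPKM against 404 FPKM in replicate 2. Differences were tested by limma on log2(FPKM + 1) over 13210 genes with at least 1 FPKM in at least 2 libraries, and a gene was called where the log2 fold change reached 1 in either direction with an adjusted p under 0.001. On this scale the change of a weakly expressed gene is understated. Of the 10 genes 9 were tested, Tdg was not, and Dnmt3l passed the filter through the ESC libraries alone.

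The promoters of Uhrf1 and Dnmt1 are shown first because these were the genes of the set called down between HC11 states. Promoter windows from RefSeq (GRCm38.p6), from 250 bases before to 50 bases after an annotated start, matched all 10 genes, with 17 windows in all. They were searched on both strands for 4 sequences bound by E2F factors, which drive genes of DNA replication, namely TTTCCCGC, TTTGGCGC, TTTGCCGC and TTTCGCGC, and no match overlapped another. Matches were found in 2 of the 17 windows, 1 of Uhrf1 and 1 of Dnmt1, whereas 2.26% of all 32851 promoter windows and 3.86% of those of the genes tested hold one. The 250 bases before these starts follow, 5′ to 3′ on the strand of the gene, with the match in capitals.
Uhrf1, chr17:56304063-56304312, plus strand: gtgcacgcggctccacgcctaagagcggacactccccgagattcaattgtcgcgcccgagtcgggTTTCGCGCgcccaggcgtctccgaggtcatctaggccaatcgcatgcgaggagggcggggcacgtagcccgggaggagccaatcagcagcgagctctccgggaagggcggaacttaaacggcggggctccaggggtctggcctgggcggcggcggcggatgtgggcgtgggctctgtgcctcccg
Dnmt1, chr9:20952624-20952873, minus strand: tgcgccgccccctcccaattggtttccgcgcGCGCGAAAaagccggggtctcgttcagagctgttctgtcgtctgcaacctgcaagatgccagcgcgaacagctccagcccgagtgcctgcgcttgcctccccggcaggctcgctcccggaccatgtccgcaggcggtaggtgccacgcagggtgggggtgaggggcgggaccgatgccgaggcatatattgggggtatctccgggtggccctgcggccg
The match of Uhrf1 begins 185 bases before its start. That of Dnmt1 begins 219 bases before its start, and a second one, TTTGGCGC, begins 33 bases after it. Each of these windows holds 33 CpG, against a median of 20 in windows of the genes tested. The other annotated starts of Uhrf1, 1 in number, and of Dnmt1, 2 in number, hold no match, and the expression table does not tell which start was used. These other starts all lie upstream of the stretches shown, so the matches lie downstream of them and may fall within transcripts that begin there. A match of letters does not show that a factor binds there.

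Dnmt1 and Uhrf1, which together maintain DNA methylation through replication, were the genes of this set whose fall from N to P passed both thresholds, and both were lowest in PRL cells. Dnmt1, the maintenance methyltransferase (chromosome 9 of GRCm38, 20907209 to 20959888, minus strand), stood at 65.8 and 67.4 FPKM in the replicates of ESC and at 63.0 and 60.6 FPKM in those of N. It had 28.03 and 26.6 FPKM in P and 15.8 and 14.9 FPKM in PRL. Each step within HC11 separated the libraries without overlap, while N lay 1.08-fold below ESC. Dnmt1 fell from N to P by 2.26-fold of the mean FPKM, with a log2 fold change of −1.15 (SE 0.07, adjusted p = 3.8e-05 from limma). Without P replicate 2 this call was lost, with a log2 fold change of −1.11 and an adjusted p of 0.0011 from limma. From P to PRL its log2 fold change of −0.79 (SE 0.07) had an adjusted p of 0.00063 from limma but missed the fold threshold, and from N to PRL Dnmt1 fell by 4.03-fold (log2 fold change −1.94, limma adjusted p = 2.7e-06). Between N and ESC its log2 fold change was −0.11 with an adjusted p of 0.17 from limma.

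Uhrf1, the reader of hemimethylated CpG (chromosome 17, 56303321 to 56323486, plus strand), had 157 and 161 FPKM in ESC and 42.9 and 39.1 FPKM in N. P cells had 4.78 and 5.63 FPKM and PRL cells 1.85 and 1.45 FPKM. The gene was lower at each of the 3 steps, with no overlap of libraries, and these levels rest on 177 or more fragments per library. From ESC to N it fell by 3.88-fold (log2 fold change −1.93 ± 0.11 SE, limma adjusted p = 6.5e-06), and from N to P by 7.87-fold (log2 fold change −2.76 ± 0.11 SE, limma adjusted p = 1.1e-05). Prolactin treated cells had a mean 3.15-fold below P (log2 fold change −1.23 ± 0.11 SE, limma adjusted p = 0.00074). Leaving out any 1 of the 6 libraries of HC11 ended this last call, with adjusted p from 0.0033 to 0.012, and also under median ratio scaling, where the log2 fold change was −1.06. The median of all genes tested was −0.15 in that comparison and 0.00 under this scaling. From N to PRL the mean of Uhrf1 was 24.8-fold lower (log2 fold change −3.99, adjusted p = 1.5e-06). In bulk RNA, fewer cells that express a gene and less RNA of it per cell cannot be told apart. Of 100-base windows of the longest Uhrf1 transcript, 7.05% also occur in transcripts of Gm5648, which has no row in the expression table.

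Uhrf2 (chromosome 19, 30030513 to 30093722, plus strand) covered a much narrower range than its relative. It stood at 19.6 and 17.97 FPKM in ESC, 25.04 and 25.4 FPKM in N, 18.8 and 18.5 FPKM in P, and 14.4 and 14.7 FPKM in PRL. The N libraries were the highest and the PRL libraries the lowest, and ESC and P overlapped. No change of Uhrf2 reached the fold threshold, and its log2 fold changes were 0.41 from ESC to N, −0.42 from N to P and −0.33 from P to PRL, with adjusted p of 0.0014, 0.0030 and 0.012 from limma. The largest, −0.75 from N to PRL, had an adjusted p of 0.00016. Uhrf1 made up 89.4% ± 0.744 (SD, n = 2) of the summed FPKM of Uhrf1 and Uhrf2 in ESC and 61.9% ± 1.77 in N. It made up 21.8% ± 2.17 in P and 10.2% ± 1.69 in PRL. The ratio of Uhrf1 to Dnmt1 was 2.39 in both ESC libraries, 0.681 and 0.646 in N, 0.171 and 0.212 in P, and 0.117 and 0.0977 in PRL, so that Uhrf1 was above Dnmt1 in ESC and below it in the HC11 libraries.

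**Figure D1:**
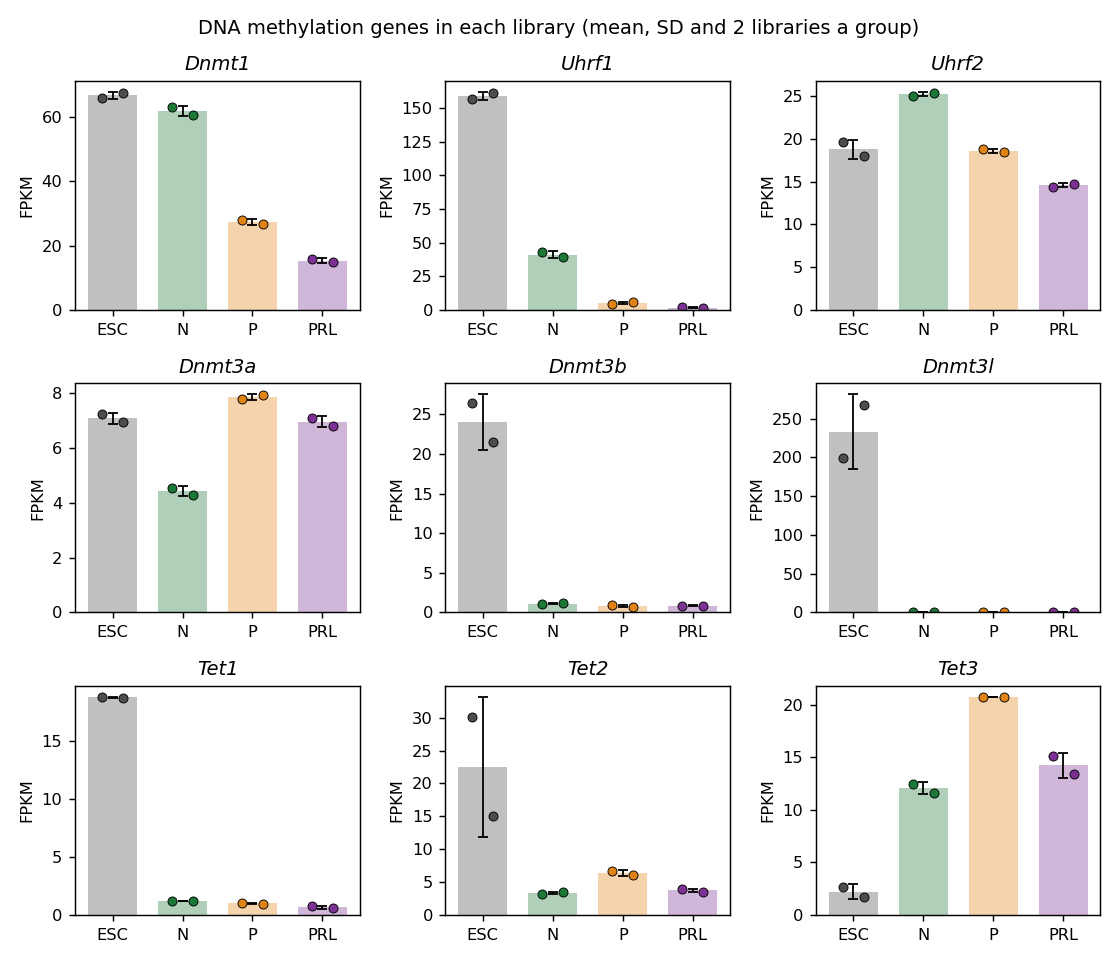
FPKM of 9 genes in ESC, N, P and PRL, with bars for the mean of 2 libraries, error bars for the SD and points for the libraries, each panel on its own linear axis from 0. Dnmt1 is near 65 FPKM in ESC and N and steps down in P and PRL, Uhrf1 steps down at each stage from 159 to 1.65 FPKM, Dnmt3b, Dnmt3l and Tet1 are high in ESC alone, and Tet3 is highest in P at 20.7 FPKM.

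Of the de novo methyltransferase genes, Dnmt3l and Dnmt3b were called down from ESC to N and were not called between HC11 states, while no change of Dnmt3a was called. Dnmt3l (chromosome 10, 78041947 to 78063622, plus strand), which encodes the catalytically inactive cofactor, had 199 and 267 FPKM in ESC and was the most expressed of the 10 genes there. It was listed at 0 in 4 of the 6 HC11 libraries, and P replicate 2 and PRL replicate 1 had 2 fragments and 1 fragment. Against the level of 3 fragments per library, the mean of ESC was at least 4747-fold higher than N. On immunoblots the paper reports a rise of the Dnmt3l protein as HC11 cells differentiated, unlike its own RNA values. Exons of Dnmt3l overlap those of Aire on the opposite strand, and Aire had 5.13 FPKM or less in every library. Dnmt3b (chromosome 2, 153649450 to 153687730, plus strand) had 26.5 and 21.5 FPKM in ESC against 1.05 and 1.16 FPKM in N, 0.895 and 0.733 FPKM in P, and 0.873 and 0.811 FPKM in PRL. It fell 21.7-fold from ESC to N (log2 fold change −3.56 ± 0.12 SE, limma adjusted p = 7.8e-07), and in HC11 cells 78 to 119 fragments per library remained. Its log2 fold changes from N to P and from P to PRL were −0.22 and 0.02, with adjusted p of 0.20 and 0.94 from limma. The rodent copy Dnmt3c, which has no row in the table, shares 5.71% of the 100-base windows of Dnmt3b.

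Dnmt3a (chromosome 12, 3806007 to 3914443, plus strand) followed another course, with its lowest level in N. It had 7.23 and 6.95 FPKM in ESC, 4.55 and 4.29 FPKM in N, 7.79 and 7.93 FPKM in P, and 7.11 and 6.82 FPKM in PRL. Both N libraries were below the other 6, and ESC and PRL overlapped. The means were 1.78-fold higher in P than in N (log2 fold change 0.71 ± 0.08 SE, limma adjusted p = 0.00057) and 1.60-fold lower in N than in ESC (log2 fold change −0.58, adjusted p = 0.00047), both below the fold threshold. From P to PRL the log2 fold change was −0.15 with an adjusted p of 0.18, and median ratio scaling turned it to 0.07. Its antisense gene Dnmt3aos stood at 0.0902 FPKM or less in every library.

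The make-up of the methyltransferase RNA changed accordingly. Dnmt3l gave 70.1% ± 4.92 (SD, n = 2) of the summed FPKM of Dnmt1, Dnmt3a, Dnmt3b and Dnmt3l in ESC, and the sum was 331 ± 45.7 FPKM. In N the sum was 67.3 ± 1.78 FPKM, of which Dnmt1 gave 91.8% ± 0.0537 and Dnmt3a 6.57% ± 0.106. Dnmt3a gave 21.8% ± 0.890 in P and 30.1% ± 0.315 in PRL, where the sums were 36.0 ± 1.01 and 23.2 ± 0.932 FPKM. The ratio of Dnmt1 to Dnmt3a was 13.8 and 14.1 in the N libraries, 3.60 and 3.35 in P, and 2.22 and 2.18 in PRL. Dnmt3b was 3.66 and 3.10 times Dnmt3a in the ESC libraries, and Dnmt3a was 3.70 to 10.8 times Dnmt3b in the HC11 libraries. These shares compare RNA per length of gene and say nothing of protein or of activity.

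**Figure D2:**
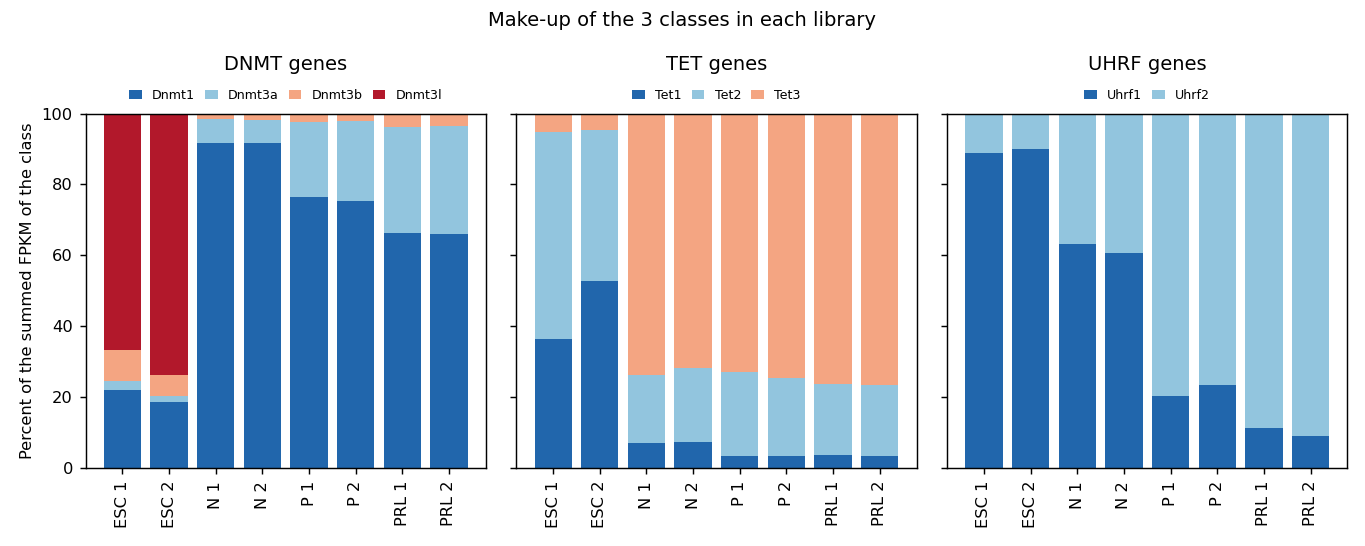
Percent of the summed FPKM that each gene gave within the DNMT, TET and UHRF classes, with 1 stacked bar per library. Dnmt3l fills 66.6% and 73.6% of the DNMT bars of ESC and is absent to the eye from HC11, Tet3 grows from 4.995% of the TET class in ESC to 72.8% in N, and Uhrf1 shrinks from 89.4% to 10.2% of the UHRF class from ESC to PRL.

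Among the genes of the demethylating TET enzymes, Tet1 and Tet2 were the main forms in ESC and Tet3 in HC11 cells. Tet1 (chromosome 10, 62804570 to 62908996, minus strand) had 18.8 and 18.7 FPKM in ESC and 1.19 and 1.18 FPKM in N. In P it had 1.02 and 0.955 FPKM and in PRL 0.745 and 0.580 FPKM, so that no 2 neighbouring groups overlapped. It fell 15.8-fold from ESC to N (log2 fold change −3.18 ± 0.09 SE, limma adjusted p = 3.9e-07). The later log2 fold changes of −0.14 and −0.26 had adjusted p of 0.27 and 0.072 from limma, and quantile normalization turned the change from P to PRL to 0.07.

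Tet3 (chromosome 6, 83362373 to 83459084, minus strand) took the opposite course, with 2.70 and 1.68 FPKM in ESC and 12.5 and 11.7 FPKM in N. P cells had 20.8 and 20.7 FPKM and PRL cells 15.1 and 13.4 FPKM. All 6 HC11 libraries were above both ESC libraries, and the P libraries were the highest. Tet3 rose 5.50-fold from ESC to N (log2 fold change 2.05 ± 0.15 SE, limma adjusted p = 2.5e-05), and with only the 4 libraries of ESC and N in the fit the adjusted p was 0.0011. The log2 fold changes of 0.74 from N to P and −0.51 from P to PRL were below the fold threshold, with adjusted p of 0.0083 and 0.041 from limma. Without ESC replicate 1 these adjusted p were 2.6e-05 and 0.00034.

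Tet2 (chromosome 3, 133463679 to 133545139, minus strand) was the least reproducible of the 9 genes in ESC, with 30.1 and 14.99 FPKM. N had 3.23 and 3.41 FPKM, P had 6.72 and 6.10 FPKM, and PRL had 3.93 and 3.54 FPKM. Both ESC libraries were above the HC11 libraries, and the P libraries were above those of N and PRL. Tet2 fell 6.78-fold from ESC to N (log2 fold change −2.37 ± 0.28 SE, limma adjusted p = 0.00023), and the call did not hold without N replicate 1, N replicate 2, PRL replicate 1 or PRL replicate 2, with adjusted p from 0.0010 to 0.0029, nor with only the 4 libraries of ESC and N in the fit (limma adjusted p = 0.0034). The log2 fold change from N to P was 0.78 with an adjusted p of 0.060 from limma. Since all groups share 1 estimate of the spread of a gene, the difference between the ESC libraries enters this test, and without ESC replicate 1 the same fold change had an adjusted p of 3.7e-05. From P to PRL the log2 fold change of −0.65 had an adjusted p of 0.12, and without ESC replicate 1 one of 0.000175. On the log2(FPKM + 1) scale Tet2 differed by 0.96 between the ESC libraries, and 4.10% of the 13210 genes differed by more.

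The ESC library with more Tet2 and Tet3 was also the one with higher levels of most fibroblast markers. The ratio of ESC replicate 1 to replicate 2 was 2.00 for Tet2 and 1.60 for Tet3, and between 0.744 and 1.23 for the other 7 genes tested. Of the fibroblast markers, Col1a1 had 114 FPKM in replicate 1 and 13.3 FPKM in replicate 2, S100a4 had 71.8 and 10.1 FPKM, and Thy1 had 26.7 and 6.71 FPKM, while Fn1 had 212 and 218 FPKM and Lum was listed at 0 in both. The summed level of the 15 markers was 811 and 404 FPKM in ESC, 1322 and 1212 FPKM in N, 1456 and 1361 FPKM in P, and 587 and 580 FPKM in PRL. Most of the HC11 sums came from Postn and Fn1, and Postn alone had 1175 and 1074 FPKM in P. Other markers were low there, with Thy1 at 0.0252 FPKM or less in HC11 and Col1a1 at 1.76 FPKM or less after priming. From ESC to N, limma called 4 of the 14 markers tested up (Postn, Col3a1, Pdgfrb and Fn1). It called 1 down, Thy1, which passed the filter through ESC alone. The ESC libraries also differed in the cell cycle genes described below. Of 28 S phase genes, 4 were higher in replicate 1, with sums of 2332 FPKM in replicate 1 and 2818 FPKM in replicate 2. Of 18 mitotic genes, 3 were higher in replicate 1, with sums of 945 and 1335 FPKM. The parts of fibroblast RNA and of cell cycle activity in the levels of Tet2 and Tet3 were not tested.

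**Figure D3:**
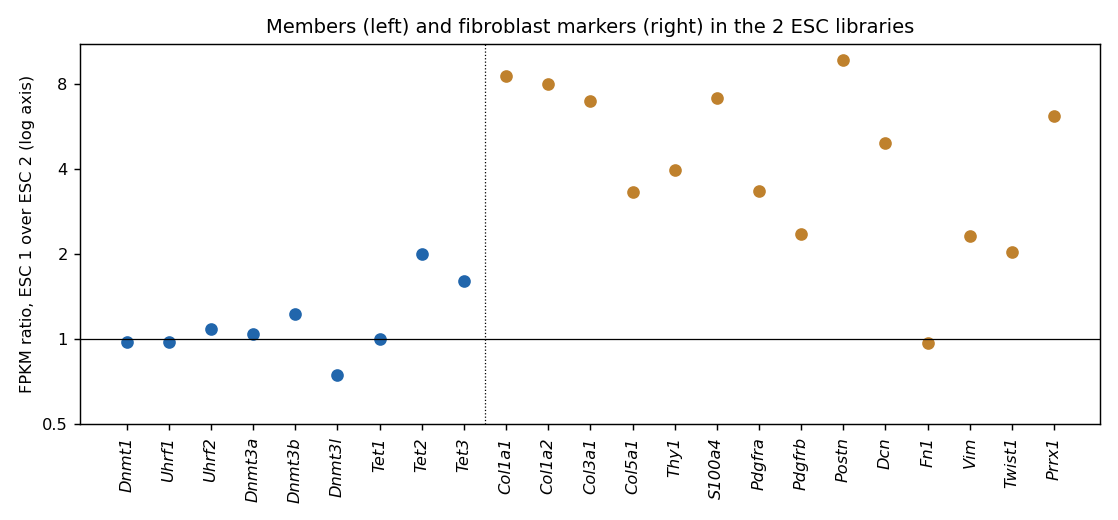
Ratio of the FPKM of ESC replicate 1 to that of ESC replicate 2 on a log axis, for 9 genes of the set on the left and the 14 fibroblast markers above 0 on the right. Tet2 at 2.00 and Tet3 at 1.60 lie above the other members, and 13 of the markers lie above 1, up to 9.74 for Postn.

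Within the TET class, Tet1 gave 36.4% and 52.9% of the summed FPKM in the ESC libraries, Tet2 58.3% and 42.3%, and Tet3 5.24% and 4.75%. The order of Tet1 and Tet2 thus differed between the ESC libraries. In HC11 cells Tet3 gave between 71.7% and 76.5% in every library. The sum of the 3 genes was 43.5 ± 11.4 FPKM in ESC (SD, n = 2), 16.6 ± 0.454 FPKM in N, 28.1 ± 0.511 FPKM in P and 18.7 ± 1.58 FPKM in PRL. Relative to the summed methyltransferase FPKM it was 0.173 and 0.0975 in ESC, 0.246 and 0.246 in N, 0.776 and 0.787 in P, and 0.830 and 0.780 in PRL. The P and PRL libraries overlapped in this ratio and lay above those of N and ESC.

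Tdg (chromosome 10, 82629828 to 82650799, plus strand), the glycosylase that removes oxidized methylcytosine, was nearly without fragments. The libraries held 2 and 3 fragments in ESC, 2 and 1 in N, 0 and 1 in P, and 0 and 0 in PRL, which corresponds to at most 0.0781 FPKM. Such values are at or under the level of 3 fragments and allow no comparison of groups. The sequence of Tdg is shown because it has near-identical copies in the genome, so that its value is uncertain. Of the 100-base windows of the longest Tdg transcript in GENCODE M21, 46.0% occur in transcripts of other genes, against at most 7.05% for the other 9 genes. Tdg-ps on chromosome 15 matches the coding sequence over 1263 of 1263 bases at 98.7% identity, and Gm9855 on chromosome 10 matches 1191 of them at 99.2%. Coding bases 121 to 240 are given for Tdg and both copies, 5′ to 3′, with the bases of a copy that differ from Tdg in capitals.
Tdg: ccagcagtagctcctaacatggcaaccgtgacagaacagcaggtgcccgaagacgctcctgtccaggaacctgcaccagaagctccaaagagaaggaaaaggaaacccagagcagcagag
Tdg-ps: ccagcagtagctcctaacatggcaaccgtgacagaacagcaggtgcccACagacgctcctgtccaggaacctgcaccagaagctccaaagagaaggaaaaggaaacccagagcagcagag
Gm9855: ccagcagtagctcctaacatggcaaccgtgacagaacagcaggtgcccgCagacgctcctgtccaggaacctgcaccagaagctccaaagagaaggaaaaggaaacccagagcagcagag
Over these 120 bases Tdg-ps differs from Tdg at 2 positions and Gm9855 at 1. Gm9855 was listed at 0 in all 8 libraries and Tdg-ps has no row in the table. Whether reads that fit several places were counted is not given in the sources used here, and its part in the low value of Tdg was not tested.

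**Figure D4:**
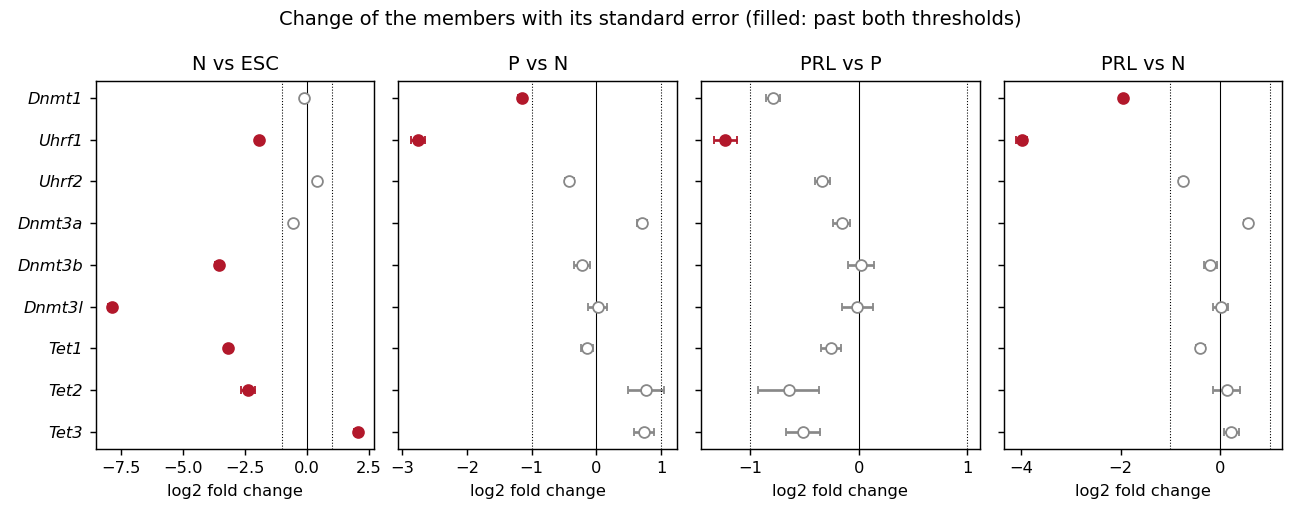
Log2 fold change of 9 genes in 4 comparisons with its standard error, on separate horizontal axes, with dotted lines at −1 and 1. Filled points passed the fold and adjusted p thresholds, namely 6 genes for N against ESC, Uhrf1 and Dnmt1 for P against N, Uhrf1 for PRL against P, and Uhrf1 and Dnmt1 for PRL against N.

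Counted over the set, N differed from ESC in 6 of the 9 genes tested. Tet3 was called up, where 15.6% of all genes tested were, and Dnmt3l, Dnmt3b, Tet1, Tet2 and Uhrf1 were called down, where 20.7% of all genes were. Dnmt3l could only pass the filter by being high in ESC. From N to P, Uhrf1 and Dnmt1 were called down, against 4.1% of all genes, and limma called 0 of the 9 genes up, against 4.54% of all genes. At an unadjusted p under 0.05, 3 genes were higher in P, which were Dnmt3a, Tet2 and Tet3, and 3 were lower. From P to PRL, Uhrf1 was called down, against 1.44% of all genes, and 0 were called up by limma, against 0.689%, with 0 higher and 5 lower at an unadjusted p under 0.05. For PRL against N, Uhrf1 and Dnmt1 were called down, against 8% of all genes, and 0 were called up, against 5.47%, with 1 gene higher (Dnmt3a) and 4 lower at an unadjusted p under 0.05. The comparisons share libraries and are not independent of each other. The median log2 fold change of the 9 genes was −1.93, −0.14, −0.33 and −0.19 in the order given, and that of all genes −0.07, 0.02, −0.15 and −0.12.

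Ordered by level, ESC had Dnmt3l, Uhrf1 and Dnmt1 at the top, without overlap between neighbours, followed by Dnmt3b, Tet2, Uhrf2 and Tet1, whose neighbours overlapped, and then Dnmt3a and Tet3. In N the order was Dnmt1, Uhrf1, Uhrf2, Tet3, Dnmt3a, Tet2, Tet1 and Dnmt3b, and no neighbours overlapped. In P, Tet3 at 20.7 ± 0.0290 FPKM and Uhrf2 at 18.6 ± 0.210 FPKM stood next to Dnmt1 at 27.3 ± 1.02 FPKM, while Uhrf1 had moved to sixth place at 5.21 ± 0.602 FPKM. In PRL, Dnmt1, Uhrf2 and Tet3 had 15.4 ± 0.670, 14.6 ± 0.222 and 14.3 ± 1.19 FPKM (SD, n = 2), of which Uhrf2 and Tet3 overlapped.

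Dnmt1 and Uhrf1 work at the replication fork, so their changes were set beside those of 28 genes of S phase and 18 genes of mitosis. From N to P, 26 of the 28 S phase genes and 18 of the 18 mitotic genes were called down, against 4.1% of all genes tested, with medians of −1.88 and −3.11 on the log2 scale against 0.02. Mcm5, a subunit of the replicative helicase, went from 71.1 ± 5.03 to 8.13 ± 0.904 FPKM and 1.53 ± 0.0381 FPKM in N, P and PRL (SD, n = 2). Rrm2, of ribonucleotide reductase, went from 70.3 ± 1.73 to 8.15 ± 0.338 and 1.09 ± 0.112 FPKM, and the mitotic cyclin gene Ccnb1 from 65.2 ± 2.73 to 5.08 ± 0.590 and 1.02 ± 0.144 FPKM. In this comparison the log2 fold change of Uhrf1, −2.76, was below that of 25 of the 28 S phase genes, and that of Dnmt1, −1.15, was above that of 26 of them. Uhrf2, at −0.42, was above all 28. Of the 18 mitotic genes, Uhrf1 was above 15, and Dnmt1 and Uhrf2 were above all 18. From P to PRL, 4 S phase genes and 7 mitotic genes were called down, against 1.44% of all genes, with medians of −0.71 and −1.50 against −0.15. These calls did not hold with any library of P or PRL left out. In that step Uhrf1 at −1.23 was again below 25 of the 28 S phase genes, while Dnmt1 at −0.79 was below 20. Of the 18 mitotic genes, Uhrf1 was above 13 and Dnmt1 above all 18. From ESC to N, 15 S phase genes were called down, against 20.7% of all genes, with a median of −1.06 against −0.07. Of the mitotic genes 1, Aurkb, was called up, against 15.6% of all genes, with a list median of −0.25. Uhrf1, at −1.93, was below 26 of the S phase genes and all 18 mitotic genes in that comparison, and Dnmt1, at −0.11, above 26 of the S phase genes. The part of cell cycle activity in the levels of Dnmt1 and Uhrf1 was not tested.

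**Figure D5:**
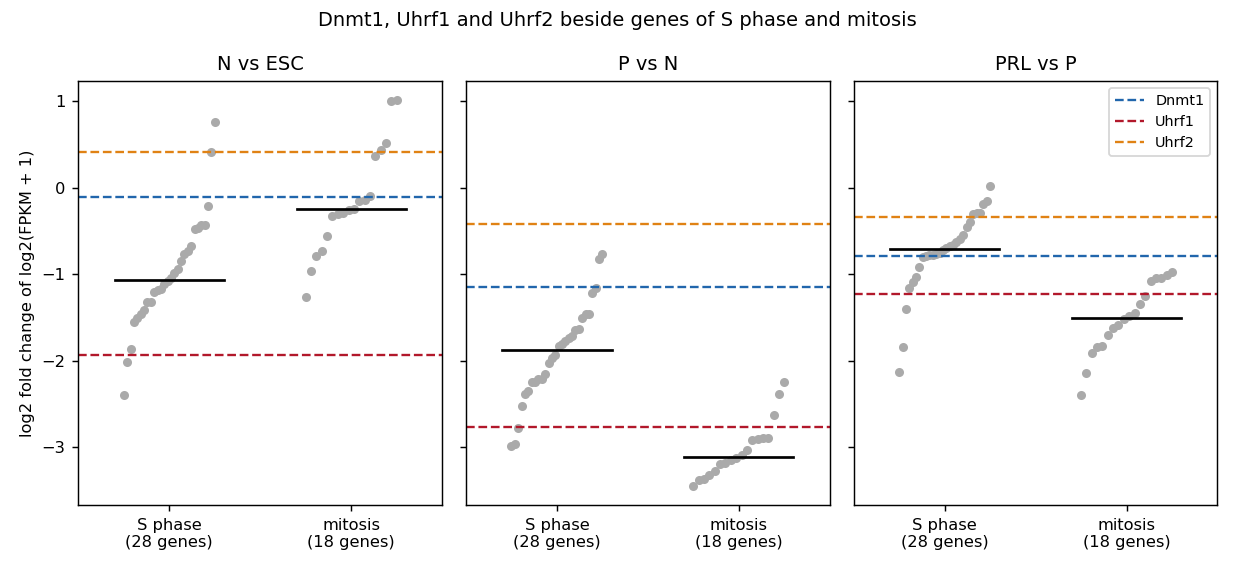
Log2 fold change of 28 S phase and 18 mitosis genes (grey points, with the median as a black line) in 3 comparisons, with dashed lines at the values of Dnmt1, Uhrf1 and Uhrf2. From N to P, Uhrf1 at −2.76 runs through the lowest S phase genes, Dnmt1 at −1.15 through the highest, and Uhrf2 at −0.42 above all of both lists.

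Partners of the methyltransferases were followed in a list of 23 genes, 22 of them tested. From N to P, 7 were called down and 0 up by limma, against 4.1% and 4.54% of all genes, with 1 higher and 13 lower at an unadjusted p under 0.05, and the list median was −0.42 against 0.02 for all genes. At the fork, Hells, the remodeller that opens chromatin for DNA methylation, had 66.2 ± 10.3 FPKM in ESC, 16.9 ± 1.29 FPKM in N, 3.48 ± 0.720 FPKM in P and 0.515 ± 0.0233 FPKM in PRL (mean ± SD of 2). Its log2 fold changes of −1.90, −2.01 and −1.55 passed the thresholds at each step (adjusted p = 3.1e-05, 0.00011 and 0.00091 from limma), as those of Uhrf1 did. As for Uhrf1, the call of Hells from P to PRL did not hold with any library of P or PRL left out. Pcna, the sliding clamp that binds DNMT1, fell from 238 ± 9.004 to 75.4 ± 1.41 FPKM from N to P (log2 fold change −1.65, adjusted p = 4.1e-05) and stood at 67.6 ± 2.33 FPKM in PRL. The ligase gene Lig1, whose methylated product is bound by UHRF1, fell from 28.4 ± 1.40 to 4.88 ± 0.560 FPKM, and the histone methyltransferase gene Suv39h1 from 18.2 ± 0.117 to 4.01 ± 0.0353 FPKM. Usp7, which deubiquitinates UHRF1 and DNMT1, had 33.9 ± 0.793 FPKM in N and 33.7 ± 0.133 FPKM in P, with a log2 fold change of −0.01 (adjusted p = 0.95). From ESC to N, 9 of the 22 were called down and 2 up, against 20.7% and 15.6% of all genes, with a median of −0.74 against −0.07. Of the 9, Zfp57 and Prdm14 passed the filter through ESC alone, so that their fall was set by it. The other 7 include Trim28, the corepressor of retroelements, from 665 ± 0.587 to 109 ± 8.04 FPKM. Zfp57, which guards imprints, had 144 ± 41.1 FPKM in ESC and 0.0471 ± 0.0290 FPKM in N. Prdm14, which represses Dnmt3b in ESC, had 18.6 and 13.0 FPKM in ESC and was listed at 0 in 5 of the HC11 libraries. Dppa3, which displaces UHRF1 in the germ line, had 0.166 and 0.717 FPKM in ESC and was listed at 0 in HC11.

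Genes of proteins that bind methylated CpG, and their relatives, were followed in a list of 10, all tested. Of these, Zbtb4 and Mbd2 were called up from ESC to N, against 15.6% of all genes (median 0.27 against −0.07), and 0 were called in either direction by limma from N to P or from P to PRL (medians 0.35 and −0.30 against 0.02 and −0.15), where 4.54% and 0.689% of all genes were called up and 4.1% and 1.44% down. At an unadjusted p under 0.05, 5 were higher and 3 lower from N to P, and 0 were higher and 6 lower from P to PRL. For PRL against N, Mbd4, a glycosylase with a methyl-CpG binding domain, was called down (log2 fold change −1.25, limma adjusted p = 7.7e-05), against 8% of all genes. Mbd2, of the NuRD complex, had 15.4 ± 5.32 FPKM in ESC (SD, n = 2) and 41.3 ± 1.41, 39.4 ± 0.130 and 37.7 ± 1.40 FPKM in N, P and PRL. Mbd3, of the same complex but without affinity for methylated CpG in mammals, was the highest of the list, with 92.2 ± 3.76 FPKM in N and 60.4 ± 0.994 FPKM in P (log2 fold change −0.60, adjusted p = 0.00045 from limma, below the fold threshold).

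Base excision repair, which completes demethylation, was followed with deaminases in 16 genes tested. From ESC to N, 6 were called down and 2 up, against 20.7% and 15.6% of all genes (median −0.53 against −0.07), and of the 6, Neil2 passed the filter through ESC alone. From N to P 2 were called down and 0 up by limma, against 4.1% and 4.54% (median −0.51 against 0.02), with 2 higher and 9 lower at an unadjusted p under 0.05. Parp1, which senses strand breaks, fell from 199 ± 0.281 FPKM in ESC to 41.5 ± 3.34 FPKM in N and 19.9 ± 0.664 FPKM in P (SD, n = 2). Neil3, a glycosylase of replicating cells, rose from 4.60 ± 0.0314 FPKM in ESC to 12.0 ± 0.306 FPKM in N, fell to 1.80 ± 0.484 FPKM in P and had 0.203 and 0.0785 FPKM in PRL. Neil2, its relative, had 7.14 and 10.3 FPKM in ESC and at most 0.0399 FPKM in HC11. Gadd45b, a stress gene linked to demethylation, rose from 10.48 ± 0.975 FPKM in ESC to 101 ± 0.681 FPKM in N and had 57.3 ± 2.75 FPKM in P and 47.0 ± 1.66 FPKM in PRL. Gadd45a fell from 42.6 ± 16.5 FPKM in ESC to 3.13 ± 0.0158 FPKM in N. Its ESC libraries had 54.3 and 30.9 FPKM, the higher value again in replicate 1.

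The methyl donor cycle supplies S-adenosylmethionine to the methyltransferases. Of 15 genes tested, 8 were called down and 0 up by limma from ESC to N, against 20.7% and 15.6% of all genes, with 2 higher and 11 lower at an unadjusted p under 0.05 and a median of −1.20 against −0.07. Of the 8, Cbs and Bhmt passed the filter through ESC alone. Cbs, which starts transsulfuration, went from 11.4 ± 0.0794 to 0.475 ± 0.104 FPKM. Ahcy, Shmt2 and Mtr were called down and Gnmt up from N to P, against 4.1% and 4.54% of all genes, with a median of 0.02 as over all genes. Ahcy, which clears the inhibitor S-adenosylhomocysteine, fell from 103 ± 3.40 to 29.0 ± 0.856 FPKM (log2 fold change −1.79, adjusted p = 8.8e-05 from limma) and had 35.5 ± 0.103 FPKM in PRL. Gnmt, a glycine methyltransferase that consumes the donor, rose from 2.08 ± 0.294 to 5.89 ± 0.582 FPKM (log2 fold change 1.16, adjusted p = 0.00061) and had 13.7 ± 0.644 FPKM in PRL. Mat2a, which makes the donor, had 58.7 ± 1.41, 58.4 ± 3.26 and 46.6 ± 1.20 FPKM in N, P and PRL, and its changes did not pass. The mitochondrial folate enzyme gene Mthfd2 was called up from P to PRL, from 30.4 ± 0.692 to 75.8 ± 7.91 FPKM. This call did not hold with either PRL library left out.

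Genes that supply or partner the TET enzymes were called in few cases. Of 13 tested, Ogt was called up from N to P, against 4.54% of all genes (median −0.20 against 0.02), and down from P to PRL, against 1.44% (median −0.10 against −0.15). Ogt, the glycosyltransferase that TET2 and TET3 bind, had 32.8 and 32.2 FPKM in N, 73.1 and 67.0 FPKM in P, and 33.4 and 30.3 FPKM in PRL. P was above N and PRL without overlap, as for Tet2 and Tet3, and the log2 fold changes of Ogt were 1.09 and −1.11 (adjusted p = 0.00026 and 0.00076 from limma). The call of Ogt from P to PRL did not hold with any library of P or PRL left out. Idh1, a cytosolic source of 2-oxoglutarate, had 26.9 ± 1.15 FPKM in N, 16.3 ± 0.404 FPKM in P and 10.2 ± 0.332 FPKM in PRL, and fell from N to PRL (log2 fold change −1.32, adjusted p = 3.3e-05). Idh2, its mitochondrial counterpart, had 88.4 ± 4.92, 77.4 ± 3.43 and 113 ± 6.28 FPKM, and its changes did not pass. Cxxc5, a CXXC protein that binds TET2, fell from 27.96 ± 3.25 FPKM in ESC to 0.972 ± 0.174 FPKM in N.

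Germ cell genes whose promoters are silenced by DNA methylation in somatic cells were read as levels. Of 19 in the table, 10 had at least 1 FPKM in both ESC libraries, and 9 of the 10 tested passed the filter through ESC alone, so that their fall was set by the filter. In HC11 cells 1 of the 19, Sycp3 of the synaptonemal complex, reached 1 FPKM in any library, with 0.802 and 0.973 FPKM in N, 2.82 and 2.28 FPKM in P, and 0.952 and 1.18 FPKM in PRL. Its log2 fold changes of 0.91 from N to P and −0.78 from P to PRL had adjusted p of 0.0026 and 0.0080 from limma and were not called. Tex19.1, of the germ line and early embryo, had 27.4 and 23.2 FPKM in ESC and at most 0.123 FPKM in HC11.

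Genes with the most similar pattern over the 8 libraries were found by Pearson correlation of log2(FPKM + 1) among 8269 genes with at least 10 FPKM in a group. The points share libraries and form 4 groups, and the values are descriptive. Closest to Dnmt1 were Ppp2r1b, Hnrnpll and Shcbp1 (r = 0.998 for each), and closest to Uhrf1 were Pop1, Lmnb1 and Smarcc1 (r = 0.999, 0.999 and 0.999). Lmnb1, of the nuclear lamina, had 65.3 and 62.1 FPKM in N, 11.9 and 12.4 FPKM in P and 5.96 and 6.46 FPKM in PRL. Uhrf2 was closest to Elavl1, Pdlim7 and Taf11 (r = 0.994, 0.993 and 0.988), and Dnmt3a to Zfp263, Pradc1 and Slc8b1 (r = 0.985, 0.985 and 0.983). Tet3 was closest to Prr24, Tmem123 and Cebpa (r = 0.998 for each), and Cebpa, a transcription factor, had 8.56 and 7.64 FPKM in N, 14.998 and 14.2 FPKM in P and 9.89 and 9.99 FPKM in PRL. Tet2 was closest to Sipa1l3, Kmt2b and Zfp609 (r = 0.995 for each). Dnmt3b, Dnmt3l and Tet1 were closest to other genes high in ESC, led by Bend4, Kcnk5 and Cd97 (r = 1.00, 1.00 and 0.999).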

How the data were processed

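RNA was measured in 8 libraries, 2 each of ESC, N, P and PRL. Total RNA was extracted with TRIzol, ribosomal RNA was depleted, and mRNA was then enriched on oligo(dT) beads. Paired-end reads were obtained from NEBNext Ultra libraries. The authors trimmed adaptors with Trimmomatic, mapped reads to GRCm38/mm10 with TopHat2, assigned them to genes with featureCounts and deposited FPKM per gene and library. The submitters' processing notes also name DESeq2. The deposited tables of the authors' own comparisons hold their fold changes and p-values and were not used. The gene annotation, the strand setting and the treatment of reads that map to several places are not given in the sources used here.

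The FPKM of 16933 of 16933 genes above 0 in at least 3 libraries were whole numbers of fragments within 0.05, which gave fragments per library and gene lengths. No count model was fitted. Groups followed the labels. The test was limma 3.58.1 on log2(FPKM + 1) of 13210 genes with at least 1 FPKM in at least 2 libraries, with 4 groups in 1 fit, 4 residual degrees of freedom, trend and robust options and Benjamini-Hochberg adjustment over all genes tested. Calls used the thresholds in the methods of the study, a log2 fold change of 1 and an adjusted p of 0.001. The script was tested on simulated data. Values with no test are given per library or as mean ± SD. Python 3.11.15, pandas 2.3.3 and Biopython 1.88 were used for tables and sequences, and loci came from GENCODE M21 of GRCm38.

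The genes, the lists and the tests were chosen with earlier results of these data known. Named genes outside the 10 are, per list and comparison, up to 3 called genes with the largest change and at least 5 FPKM in the higher group, up to 2 others with the highest FPKM, 9 chosen partners or cofactors, the 3 genes most like each of the 10, and markers. Of these the text names a part. Mtr, Mbd4, Bhmt and Dnmt3c, and Aire and other overlapping genes or copies, were named after their values were seen. Alternatives were pseudocounts of 0.1 and 0.5, no filter, a minimum of 5 FPKM, scaling by median ratios, quantile normalization, the replicate number as a block, fits of the 4 libraries compared, an adjusted p of 0.05, the fold alone and leaving out each library.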

Additional observations from a re-analysis of the deposited data

How the results depend on the processing

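Of the log2 fold changes of the 9 genes in 4 comparisons under the alternatives, 576 kept their direction and side of the thresholds, 17 lost the call and 6 turned direction, all 6 in changes that were not called. For N against ESC the count called up was 0 with only the 4 libraries compared, since Tet3 then had an adjusted p of 0.0011 from limma. Of the genes called down, Dnmt3l did not pass the filter when an ESC library was left out. Tet2 lost its call when a library of N or PRL was left out. For P against N the count called down was 1 to 2 when each library was left out. For PRL against P the count called down was 0 under no filter, median ratio scaling, quantile normalization and the replicate block, and 0 to 1 when each library was left out. The log2 fold change of Uhrf1 in that comparison was −1.06 under median ratio scaling and −0.87 under quantile normalization, and with the replicate block its adjusted p was 0.0026. Turned were Dnmt3a in PRL against P, to 0.066 under median ratio scaling and 0.0995 under quantile normalization, Tet1, to 0.065 under quantile normalization, and Dnmt3b, which ranged from −0.0415 to 0.0881 over the libraries left out, and Dnmt3l, from −0.0330 to 0.0102, in the 6 settings where it passed the filter. The causes were not tested. Replicate numbers of different groups did not deviate together (r from −0.03 to 0.08), so they were taken as numbers only, and the replicate block changed no other call of the set. Of all genes, 31 were called up and 14 down from P to PRL with the replicate block, against 91 and 190 without it, no filter gave 55 and 55 and a pseudocount of 0.1 gave 57 and 172. With only the 4 libraries compared it was 157 and 522 there and 969 and 1555 for N against ESC, against 2056 and 2739. Leaving out any 1 of the HC11 libraries gave at most 15 up and 3 down from P to PRL, and leaving out an ESC library 155 up and 497 down. From N to P, where 600 and 541 were called, leaving out 1 library gave 155 to 776 up and 156 to 691 down, the lowest without P replicate 1. Median ratio scaling gave 161 genes up and 92 down for PRL against P, and 600 and 562 for P against N. With PRL against N this scaling gave 988 and 830, where the fit without it gave 723 and 1057. The 2 libraries per group and, for genes near 1 FPKM, the number of fragments limit what can be shown.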
